A study of Mus musculus with 14 samples.

Results

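The aryl hydrocarbon receptor gene Ahr and 2 genes reported as its targets, Tiparp and Ugt1a6b, were followed in natural killer (NK) cells of mice with a mammary tumour. These 3 genes were chosen by name, with their values in these NK groups already known, so their own levels and differences are a description and carry no test. They are 3 of 10210 genes in the NK count table, and all 3 are among the 8471 genes that passed the filter on low counts. The libraries hold 3′ end RNA sequencing of polyA RNA from sorted mouse cells. The NK groups, all from BALB/c mice aged 8 weeks, were 3 libraries from spleens of healthy mice, 4 from spleens of females that carried a 4T1-GFP tumour, and 4 from such tumours. The 4T1 line, a mammary carcinoma of BALB/c origin, serves as a triple-negative breast cancer model; it carried green fluorescent protein (GFP), and 100000 cells were injected into a mammary fat pad. NK cells were sorted as positive for CD45 and NKp46 and free of GFP, EPCAM, CD3, CD31 and CD14. A 4th group, in a table of its own, was 3 libraries of sCAFs, which are cancer-associated fibroblasts of these tumours that lacked GFP, EPCAM, CD45, CD31 and PDPN. The labels name no genotype, allele or drug that separates the groups. The design text calls the replicates of a group independent, without saying whether each is 1 mouse or a pool.

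AHR is a receptor in the cytoplasm that binds small molecules, among them products of tryptophan breakdown and environmental pollutants. There it is held by the HSP90 chaperone; with a ligand it moves to the nucleus, pairs with ARNT and binds DNA at a short core, GCGTG. Genes it is known to switch on include enzymes that oxidise or conjugate foreign compounds, and TIPARP, a mono-ADP-ribosyltransferase that in turn restrains the receptor. In lymphoid cells AHR is best known for its role in innate lymphoid cells and T helper cells, and it has been described in NK cells too.

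NK library totals ran from 559688 to 1966963 counts, so 1 count was worth a different share in each library, and 3 counts corresponded to between 1.54 and 4.60 CPM, the count scaled to a library of fixed size. The 10 NK cell marker genes, among them Ncr1, Gzma and Prf1, were all listed in every group, and their summed level was 31520 to 34300 CPM in healthy spleen, 29700 to 32790 in tumour-bearing spleen and 20650 to 25200 in tumour. Markers of other cells differed in both directions. Group 3 innate lymphoid cell genes (4 of 10 listed: Il22, Kit, Tmem176a, Tmem176b) summed to 419 to 578 CPM against at most 127 in any spleen library, while the marker Il23r is not listed in the table. Group 1 innate lymphoid cell genes (5 of 6 listed) summed to 352 to 440 CPM in tumour against at most 148 in spleen. Macrophage and monocyte genes (8 of 12 listed) overlapped between the groups and ranged from 171 to 997 CPM in healthy spleen, 177 to 744 in tumour-bearing spleen and 544 to 1169 in tumour, neutrophil genes (4 of 9) from 55.5 to 153 in tumour against at most 14.2 in spleen, and Epcam with Cdh1 (2 of 9 carcinoma markers) from 25.0 to 51.0 against at most 3.57. From the fibroblast list only Col1a2, Col3a1 and Thy1 (3 of 10) are listed, while Col1a1, Dcn, Pdgfra and Pdgfrb are among those not listed. Their sum was 698 to 858 CPM in tumour, 389 to 516 in tumour-bearing spleen and 197 to 253 in healthy spleen. It was not split by gene and is no measure of fibroblast content. The endothelial gene Pecam1 (1 of 6) was at 130 to 185 in tumour against at most 93.0 in spleen. T cell genes (3 of 9) summed to 59.2 to 98.1 CPM in tumour, 106 to 144 in tumour-bearing spleen and at most 79.3 in healthy spleen, and dendritic cell genes (2 of 8) to 173 to 224, 250 to 320 and 171 to 178. B cell genes (2 of 7) were at 4.21 to 21.2, 8.91 to 15.3 and 20.3 to 25.6 CPM, and none of 7 erythroid genes is listed. The part of these other cells in the results below was not tested. Only the tumours went through 20 min of enzyme digestion at 37 °C, and handling cannot be told apart from tissue. In such bulk libraries fewer cells of a type and less RNA per cell cannot be told apart either.

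The spleen libraries did not form 1 cluster per group. On the second principal component, which held 15.3% of the variance, tumour-bearing spleen replicates 1 and 2 (13.24 and 12.55) and healthy spleen replicate 1 (47.6) stood on one side, called the first side here. Tumour-bearing spleen replicates 3 and 4 (-16.39 and -23.91) and healthy spleen replicates 2 and 3 (-6.28 and -8.80) stood on the second side. No label accounts for this division. Ahr is given against each side, and for other genes the value against one side is given where that side alone ended a call.

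Where each gene lies bears on what its counts can mean. In the GENCODE M21 annotation of GRCm38 (mm10), Ahr is on the minus strand at chr12:35497974-35535038 with 11 exons, and Tiparp on the plus strand at chr3:65528410-65555518 with 6 exons. Each overlaps 1 gene on the opposite strand, Gm48236 and 4931440P22Rik, and whether counting used strand is not given in the sources used here. Ugt1a6b encodes a UDP-glucuronosyltransferase, an enzyme that couples small molecules to glucuronic acid, and spans chr1:88103252-88219003 on the plus strand with 6 exons. It is 1 of 9 Ugt1a genes that share the exons at the 3′ end. Each of the 9 also has an upstream exon that no other Ugt1a gene covers. Ugt1a7c, however, shares the first exon of Ugt1a6b, and overlaps the first coding exon of Ugt1a6a. The last exon of Ugt1a6b, of 877 bases, is covered to at least 99.32% by each of the other 8 genes. Of the last 1000 bases of its transcript, 0 belong to Ugt1a6b alone, and the nearest stretch that does lies 1318 bases from the transcript's end. Libraries made from the 3′ end therefore cannot tell the 9 genes apart, and the values printed for Ugt1a6b are those of the table's row of that name. It is the only Ugt1a gene listed in either table.

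**Figure D1:**
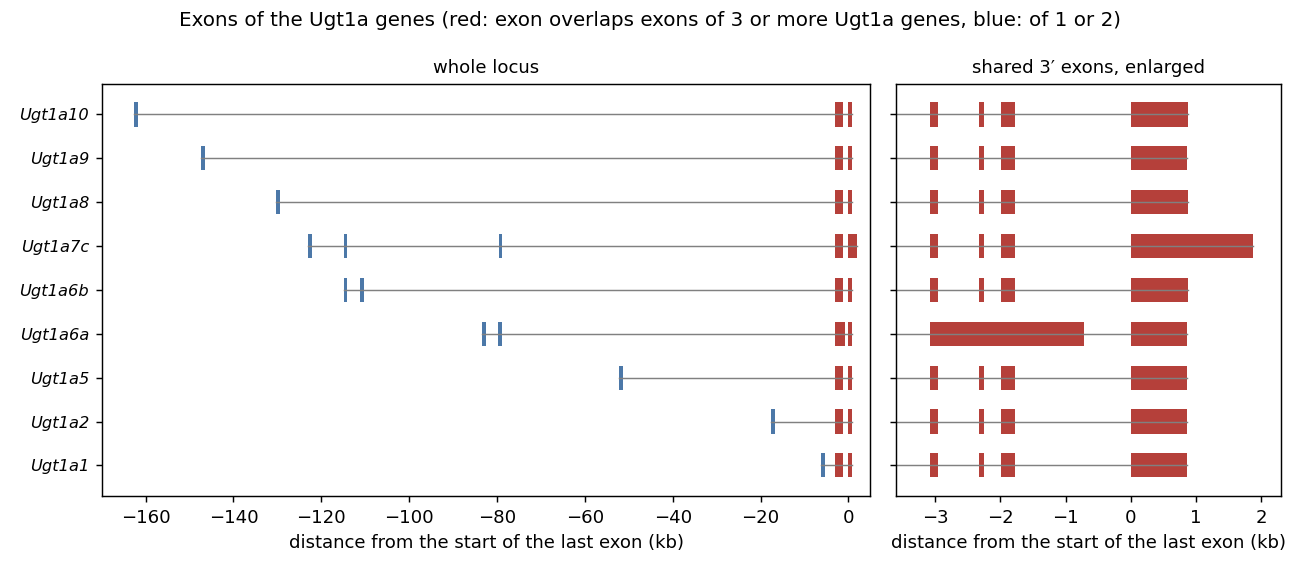
Exons of the 9 Ugt1a genes, by distance in kb from the start of the shared last exon, for the whole locus (left) and for the 3′ exons (right). Bars are exons; red exons overlap exons of 3 or more Ugt1a genes and blue ones of 1 or 2. The first coding exons lie apart, that of Ugt1a6b 111 kb before the last exon, and the 3′ exons on the right line up across all 9 genes.

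The sequences show how near the closest relative is. The first coding exons of Ugt1a6b and Ugt1a6a have 858 bases each and differ at 26 of them (97% identical), and the 4 later coding exons are the same stretch of DNA for both. A window of 120 bases in the first coding exon, coding bases 241 to 360, holds 15 of these differences, shown in capitals. It lies at chr1:88107182-88107301 for Ugt1a6b and chr1:88138714-88138833 for Ugt1a6a, both on the plus strand.
Ugt1a6b first coding exon: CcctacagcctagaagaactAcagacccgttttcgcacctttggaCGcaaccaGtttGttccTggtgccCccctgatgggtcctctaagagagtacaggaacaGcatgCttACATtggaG
Ugt1a6a first coding exon: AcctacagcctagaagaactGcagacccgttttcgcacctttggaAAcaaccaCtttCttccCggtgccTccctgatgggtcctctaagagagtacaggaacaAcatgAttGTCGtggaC
A read from the 3′ end of either transcript falls in the shared exons, where no such difference exists.

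Tiparp was the only one of the 3 genes with an entry in the RefSeq promoter table (GRCm38.p6, 300 bases per entry: 250 before the gene's start and 50 after it). Its promoter held the receptor's core GCGTG, searched on both strands, 1 time, on the minus strand and read here as CACGC in capitals at -170 to -166 from the RefSeq start. The bases shown are chr3:65528197-65528409, plus strand, and end just before the annotated gene.
Tiparp upstream: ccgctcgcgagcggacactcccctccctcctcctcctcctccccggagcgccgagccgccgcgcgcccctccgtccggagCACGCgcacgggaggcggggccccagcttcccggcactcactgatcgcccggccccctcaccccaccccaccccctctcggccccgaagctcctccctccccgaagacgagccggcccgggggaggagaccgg
The core occurred in 32.4% of the 32851 promoters of the table, and the longer form TNGCGTG, which contains it, in 5.07% and not in Tiparp. The 300 bases of the Tiparp promoter were 73.7% G or C. A match to these letters is a description of the sequence and not a measured binding site.

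Ahr was higher in every tumour library than in any spleen library. It had 37.5, 73.5, 57.4 and 49.2 CPM in tumour NK replicates 1 to 4. In tumour-bearing spleen the 4 replicates had 14.4, 6.66, 1.54 and 2.88 CPM, and in healthy spleen the 3 replicates had 12.3, 3.72 and 1.64. The lowest tumour value, in replicate 1, was above the highest spleen value, in tumour-bearing spleen replicate 1. The spleen values rest on few reads: 19, 12, 3 and 4 counts in tumour-bearing spleen and 8, 7 and 2 in healthy spleen, against 46, 51, 96 and 52 in tumour. Group means were 54.4 ± 15.2 CPM in tumour (SD, n = 4), 6.37 ± 5.78 in tumour-bearing spleen (SD, n = 4) and 5.88 ± 5.63 in healthy spleen (SD, n = 3). The difference between tumour and tumour-bearing spleen was 3.14 on the log2 scale (SE 0.495), 8.8-fold, and that between tumour and healthy spleen 3.49 (SE 0.614), 11.2-fold. Both contrasts use the same 4 tumour libraries. The 2 spleen groups overlapped and differed by 0.35 (SE 0.763), less than its SE.

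In the spleens, Ahr followed the division of the libraries more than the group. The 3 first-side libraries had 14.4, 6.66 and 12.3 CPM, and the 4 second-side libraries between 1.54 and 3.72. Against the first-side libraries alone the tumour difference in Ahr was 2.39 for tumour-bearing spleen and 2.09 for healthy spleen, and against the second-side libraries alone 4.57 and 4.14, on the log2 scale. The first side has a single healthy library, replicate 1, which is then assumed to vary like the other groups. It is also the shallowest of the 11 NK libraries, with 559688 counts. In comparisons with it alone, here and below, side and depth cannot be told apart. With side as a block among the spleen libraries the difference between tumour-bearing and healthy spleen in Ahr was -0.35, where the fit without it gave 0.35. The tumour level was thus above the spleen level on either side, and no direction held between the spleen groups.

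Tiparp, the receptor's target and restraint, was at a low level in all 7 spleen libraries and high in all 4 tumour libraries. Tumour replicates 1 to 4 had 39.9, 47.6, 64.6 and 35.0 CPM. Tumour-bearing spleens had 2.27, 5.00, 4.61 and 5.75 CPM, and healthy spleens 9.20, 5.85 and 4.10. The tumour range starts well above the top of the spleen range, and the spleen groups overlap. The counts behind the spleen values were 3, 9, 9 and 8, and 6, 11 and 5. Means were 46.8 ± 13.0 CPM in tumour (SD, n = 4), 4.41 ± 1.5 in tumour-bearing spleen (SD, n = 4) and 6.38 ± 2.59 in healthy spleen (SD, n = 3). Tumour minus tumour-bearing spleen was 3.38 on the log2 scale (SE 0.295), 10.4-fold, and tumour minus healthy spleen 2.97 (SE 0.335), 7.85-fold. Tumour-bearing minus healthy spleen was -0.40 (SE 0.426). Unlike Ahr, Tiparp did not split the tumour-bearing spleens by side: its lowest value there was on the first side, in replicate 1.

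The row named Ugt1a6b had another order: it was highest in tumour-bearing spleen, intermediate in tumour and lowest in healthy spleen. Tumour-bearing spleens had 77.3, 71.0, 112 and 87.0 CPM, tumours 62.8, 50.5, 63.4 and 64.3, and healthy spleens 29.1, 18.1 and 24.6. No 2 of the 3 groups overlapped. Means were 86.9 ± 18.0 CPM (SD, n = 4), 60.2 ± 6.53 (SD, n = 4) and 23.9 ± 5.55 (SD, n = 3) in that order. Tumour-bearing minus healthy spleen was 1.93 on the log2 scale (SE 0.215), 3.8-fold, tumour minus healthy spleen 1.41 (SE 0.223), 2.65-fold, and tumour minus tumour-bearing spleen -0.52 (SE 0.172), which is 0.698 times the spleen level. Ugt1a6b counts were 102, 128, 219 and 121 in tumour-bearing spleen, 77, 35, 106 and 68 in tumour and 19, 34 and 30 in healthy spleen. Reads from the shared 3′ exons could have come from any of the 9 Ugt1a genes. The annotation that assigned reads to this row is not given in the sources used here.

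**Figure D2:**
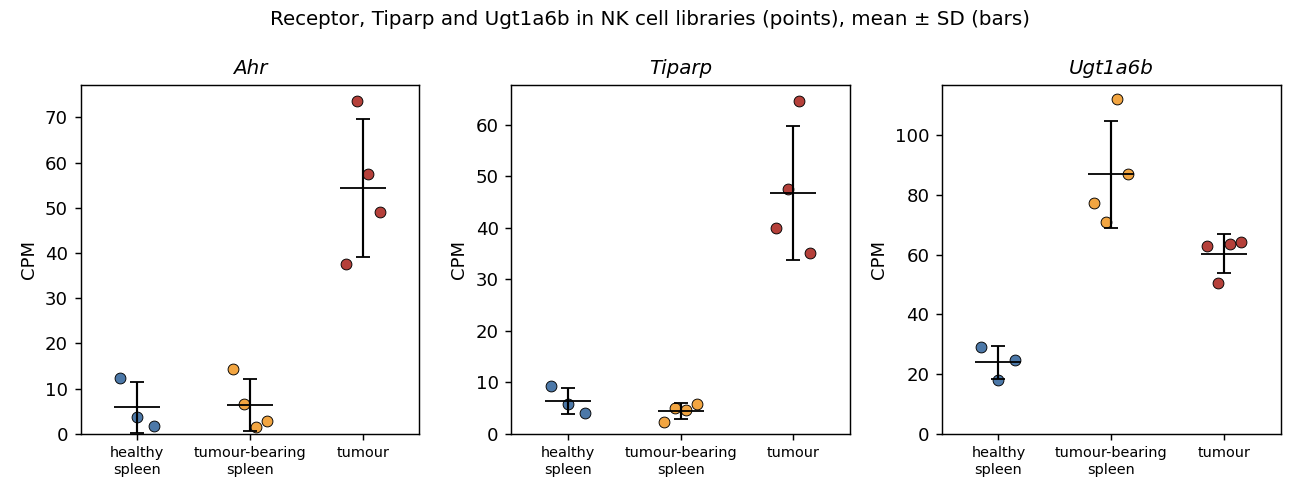
CPM of Ahr, Tiparp and Ugt1a6b (vertical axes) in healthy spleen (n = 3), tumour-bearing spleen (n = 4) and tumour NK libraries (n = 4); points are libraries and bars the mean ± SD. For Ahr and Tiparp the tumour points lie above all spleen points, and for Ugt1a6b the tumour points lie between the 2 spleen groups.

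As background for these separations, 29.7% of the 8471 genes had groups that did not overlap between tumour and tumour-bearing spleen, 34.8% between tumour and healthy spleen and 12.2% between the spleen groups. Since the genes were chosen by these values, nothing is read from the comparison. Across the 11 NK libraries the log2 CPM of Ahr and Tiparp had a Pearson r of 0.867, Ahr and Ugt1a6b 0.136 and Tiparp and Ugt1a6b 0.0749. The points share 3 groups and their depth, so these values describe the group pattern. Ahr and Tiparp thus shared the tumour against spleen pattern, and Ugt1a6b stood apart from both.

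In the sCAF libraries, where no comparison group exists and CPM were taken on raw totals of 1318067 to 2230475 counts, all 3 genes were detected. Ahr had 10.8, 17.4 and 15.8 CPM (24, 23 and 21 counts). Tiparp had 15.2, 6.07 and 6.76 CPM (34, 8 and 9 counts), and Ugt1a6b 8.52, 4.55 and 3.00 CPM (19, 6 and 4 counts). The replicates differed by up to about the size of the mean, and the table was counted apart from the NK table, so no level is compared between them. Cyp1b1, a cytochrome P450 that AHR is known to induce, had 7, 1 and 8 counts in these libraries, and Nqo1, a quinone reductase, 8, 5 and 4.

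The genes whose pattern over the 11 NK libraries was most like each of the 3 were found by Pearson r of log2 CPM. For Ahr they were Abhd17b (r = 0.992), Ifi44 (0.992), Ptpn22 (0.987), Atp5a1 (0.983) and Trp53inp2 (0.982). Ptpn22, which encodes a phosphatase of lymphocyte receptor signalling, had 660 ± 63.9 CPM in tumour, 236 ± 75.8 in tumour-bearing spleen and 207 ± 80.9 in healthy spleen (SD, n = 4, 4 and 3). Ifi44, an interferon-induced gene, had 125 ± 51.4, 10.8 ± 8.44 and 7.76 ± 8.03 CPM. Ifi44 shares with Ahr an SD close to its mean in each spleen group. For Tiparp they were Trf (0.985), Ccnl1 (0.972), Slc2a6 (0.971), Ehd1 (0.969) and Nrp1 (0.968), whose tumour levels lay far outside their narrow spleen spread. Trf, the gene of transferrin, had 165 ± 14.5 CPM in tumour, 34.5 ± 3.40 in tumour-bearing spleen and 42.3 ± 7.18 in healthy spleen, and Nrp1, the gene of the coreceptor neuropilin-1, had 11.7 ± 2.18 in tumour and 0 counts in all 7 spleen libraries. For Ugt1a6b they were Cdc45 (0.941), Ccl4 (0.924), Top2a (0.921), Phf11b (0.917) and Acot7 (0.906). Ccl4, a chemokine of activated NK cells, had 1767 ± 147 CPM in tumour-bearing spleen, 1586 ± 366 in tumour and 422 ± 75.5 in healthy spleen. Cdc45 and Top2a, which act in DNA replication and in untangling DNA, had 17.3 ± 0.521 and 60.8 ± 7.23 CPM in tumour-bearing spleen, 10.9 ± 3.09 and 57.3 ± 13.2 in tumour and 5.20 ± 1.29 and 23.3 ± 5.34 in healthy spleen. With Spearman rho, the first 50 genes still held 5 of the 5 for Ahr, 2 for Tiparp and 3 for Ugt1a6b.

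Around the receptor, 3 gene lists were counted: its complex and partners, its reported targets, and tryptophan transport with the kynurenine pathway, whose products bind it. With the 3 chosen genes left out they hold 63 genes, of which 41 are listed in the table and 34 were tested. In tumour against tumour-bearing spleen 10 of the 34 were higher and 6 lower at an adjusted p under 0.05 (edgeR quasi-likelihood test, Benjamini-Hochberg over 8471 genes), where 15.8% of all genes were higher and 13.2% lower. Against healthy spleen 12 were higher and 5 lower, where 16.5% and 14.0% of all genes were. Their median log2 difference was 0.24 and 0.28, against 0.0017 and 0.02 over all genes tested. The split of all calls depended on scaling: 54.5% and 54.2% of them were higher with TMM, and 41.6% and 42.4% with upper-quartile scaling. Against the first side of healthy spleen alone 11 of the 34 were called.

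Of 12 tested partners that hold and pair with the receptor, 1 was higher and 1 lower against tumour-bearing spleen, with a median of 0.16, where 15.8% and 13.2% of all genes were. Against healthy spleen 3 were higher and 1 lower (33.3% of the 12 in all), with a median of 0.24, where 16.5% and 14.0% of all genes were, a share near the background. Arnt, the DNA-binding partner, had 15.0 ± 7.50 CPM in tumour (SD, n = 4), 15.0 ± 2.68 in tumour-bearing spleen and 13.6 ± 4.02 in healthy spleen, and its differences of 0.04 (SE 0.312, edgeR adjusted p = 0.935) and 0.17 (SE 0.355, edgeR adjusted p = 0.753) were smaller than their SE. Relb, an NF-kappaB subunit that can pair with AHR, rose in tumour: it had 131, 151, 114 and 155 CPM there, 40.2 to 79.1 in tumour-bearing spleen and 33.7 to 56.9 in healthy spleen. Its log2 differences were 1.22 (SE 0.189, edgeR adjusted p = 6.07e-05) and 1.46 (SE 0.217, edgeR adjusted p = 3.6e-05), and no spleen library reached the lowest tumour value. Hsp90ab1 and Hsp90aa1, the HSP90 chaperones, rose against healthy spleen by 1.07 (SE 0.165, edgeR adjusted p = 5.23e-05) and 0.86 (SE 0.238, edgeR adjusted p = 0.00943), and were not called against tumour-bearing spleen (-0.11, adjusted p = 0.607, and 0.27, adjusted p = 0.344). The Hsp90aa1 call was lost without healthy spleen replicate 3 (0.68, adjusted p = 0.0685) and against the first-side library (0.73, adjusted p = 0.209).

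**Figure D3:**
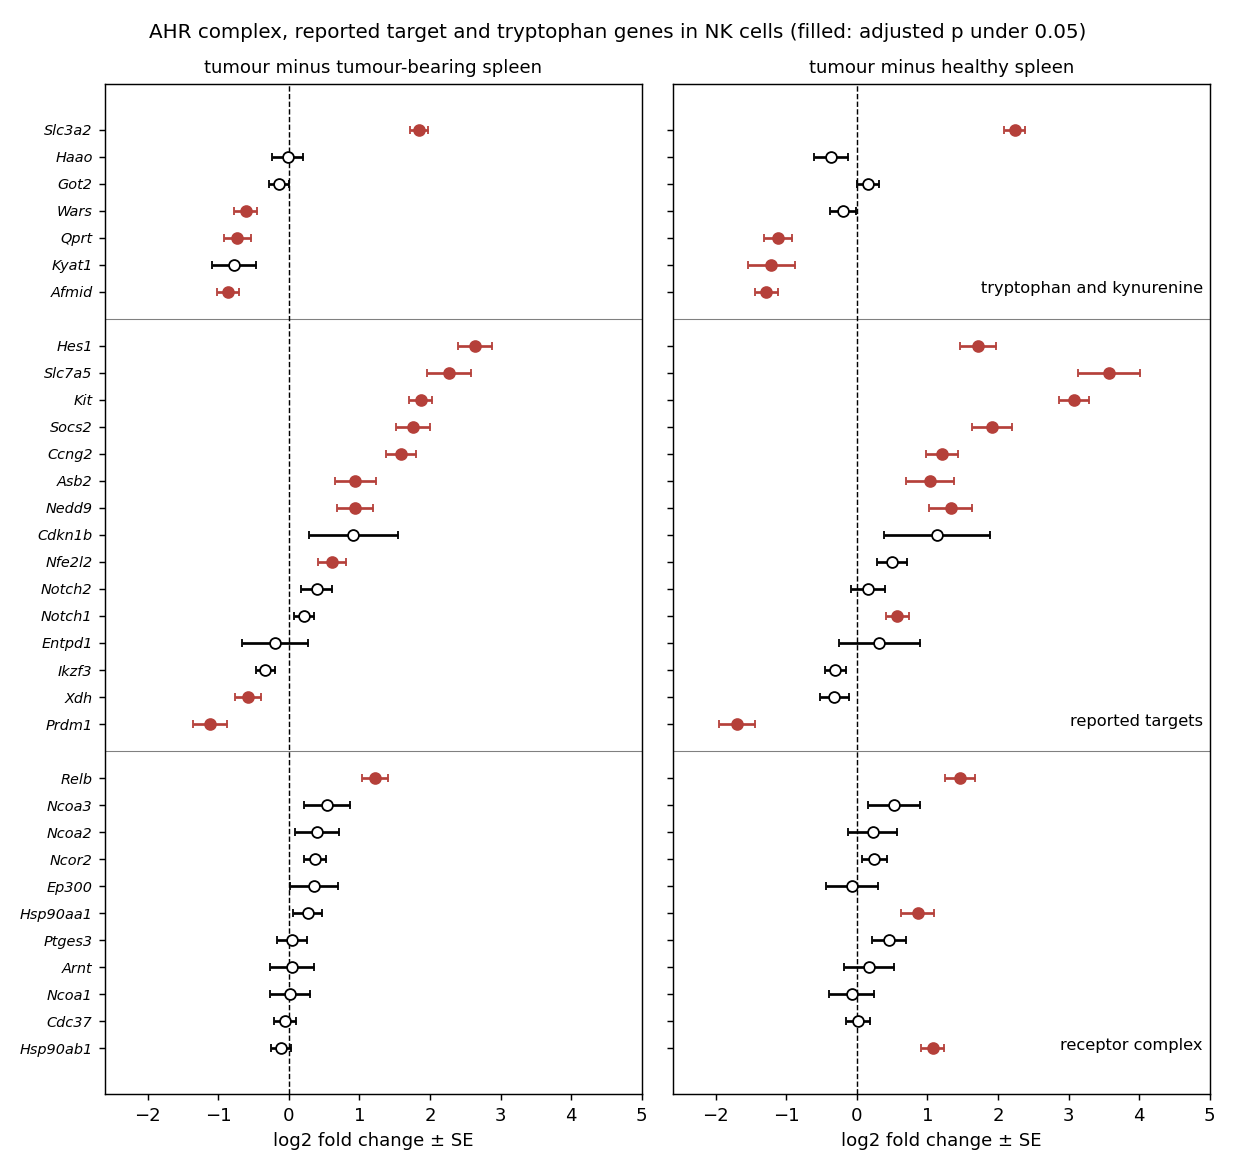
Log2 fold change ± SE (horizontal axes) of tested genes around the receptor, tumour minus tumour-bearing spleen (left) and tumour minus healthy spleen (right); filled red points have an adjusted p under 0.05. On the left the partners other than Relb lie between -0.11 and 0.54, reported targets run from Prdm1 (-1.12 on the left) to Hes1 (2.64 on the left), and Slc3a2 stands alone above the kynurenine genes.

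Reported AHR targets moved in both directions, more of them up. Of 29 listed, 17 are in the table and 15 were tested. Against tumour-bearing spleen 8 rose and 2 fell, with a median of 0.92, where 15.8% of all genes were higher and 13.2% lower. Against healthy spleen 8 rose and 1 fell, with a median of 1.03, where 16.5% and 14.0% of all genes were. The falls among the targets were thus near or below the background. The best known targets could not be followed: Cyp1a1, Cyp1b1, Nqo1 and Ugt1a6a are not listed in the NK table, nor is Ahrr, the gene of the receptor's repressor. Hes1, a repressor downstream of Notch, had 106, 76.4, 69.4 and 91.7 CPM in tumour, 7.91 to 20.5 in tumour-bearing spleen and 16.9 to 29.5 in healthy spleen. Its log2 differences were 2.64 (SE 0.241, edgeR adjusted p = 8.1e-08) and 1.72 (SE 0.255, edgeR adjusted p = 3.43e-05), with all tumour libraries above all spleen libraries. Kit, the receptor of stem cell factor, had 113, 133, 103 and 138 CPM in tumour, 25.5 to 39.4 in tumour-bearing spleen and 12.3 to 15.4 in healthy spleen, so the 3 groups did not overlap. It differed by 1.87 (SE 0.166, edgeR adjusted p = 5.64e-08) and 3.08 (SE 0.215, edgeR adjusted p = 2.58e-09). Kit is also on the list of group 3 innate lymphoid cell genes given above, whose sum was higher in tumour.

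Slc7a5, the light chain of the LAT1 amino acid transporter, had 22.0, 18.8, 19.7 and 30.2 CPM in tumour, 3.79 to 5.12 in tumour-bearing spleen and 0, 2.66 and 1.64 in healthy spleen (0, 5 and 2 counts). It differed by 2.27 (SE 0.316, edgeR adjusted p = 1.75e-05) and 3.57 (SE 0.439, edgeR adjusted p = 4.11e-06). The second value rests on 7 healthy counts in all and was 3.26 against the second-side libraries; the first-side library had 0 counts, so no fold is given against it. Socs2, which dampens cytokine signalling, rose by 1.76 (SE 0.244, edgeR adjusted p = 1.66e-05) and 1.92 (SE 0.286, edgeR adjusted p = 3.72e-05), from 13.6 ± 2.58 CPM in healthy and 15.5 ± 6.58 in tumour-bearing spleen to 51.7 ± 7.90 in tumour. Ccng2, an atypical cyclin linked to cell cycle arrest, rose by 1.59 and 1.21 (edgeR adjusted p = 9.95e-06 and 0.000561), to 107, 159, 89.7 and 105 CPM. Nedd9, a scaffold protein of adhesion signalling, rose by 0.94 and 1.33 (edgeR adjusted p = 0.0136 and 0.00414); its call against healthy spleen was lost with the first-side library alone (0.42, adjusted p = 0.288). The remaining targets called higher were Asb2 in both contrasts, Nfe2l2 against tumour-bearing spleen and Notch1 against healthy spleen.

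Prdm1 and Xdh went the other way. Prdm1, the gene of the repressor BLIMP-1, fell to 15.5, 20.2, 20.9 and 12.3 CPM in tumour from 29.5 to 44.4 in tumour-bearing spleen and 41.8 to 72.9 in healthy spleen, with no overlap. Its differences were -1.12 (SE 0.24, edgeR adjusted p = 0.00151) and -1.70 (SE 0.251, edgeR adjusted p = 3.43e-05). Xdh, the gene of xanthine dehydrogenase, differed by -0.58 against tumour-bearing spleen (edgeR adjusted p = 0.0219), a call lost without tumour-bearing spleen replicate 4 or tumour replicate 1, 2 or 4 (-0.57 to -0.49, adjusted p 0.0516 to 0.0769) and against the first-side spleens (-0.45, adjusted p = 0.0847). Cdkn1b, the gene of the cell cycle inhibitor p27, was not called but divided the spleens as Ahr did: the first-side libraries had 55.3, 46.6 and 64.4 CPM and the second-side libraries 9.21 to 15.6, against 47.3 to 67.0 in tumour. Cdkn1b is described here after its values were seen. Of the 10 tested targets with an entry in the promoter table, 8 held GCGTG, where 35.2% of all genes in it did, and 1, Cdkn1b, held TNGCGTG, where 5.84% did. The 8 include Kit, Ccng2 and Nedd9, which rose, and Prdm1, which fell. The shares of 35.2% and 5.84% are over all genes with a promoter entry, not over tested genes or promoters of like base content. Nothing is read from the comparison.

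Among genes that supply or use tryptophan, the transporter subunit rose and some of the enzymes fell. Of 7 tested, 1 rose, 3 fell and 3 were not called in each tumour contrast, with medians of -0.61 and -0.37. Haao and Got2 were called in neither. Over all genes 15.8% and 16.5% were higher, near the share here, and 13.2% and 14.0% lower. Slc3a2, the heavy chain that pairs with SLC7A5 in LAT1, had 590, 512, 528 and 581 CPM in tumour, 147 to 170 in tumour-bearing spleen and 93.5 to 128 in healthy spleen. It differed by 1.84 (SE 0.131, edgeR adjusted p = 2.83e-09) and 2.23 (SE 0.15, edgeR adjusted p = 1.47e-09). Both chains of the transporter were thus higher in tumour without overlap. Afmid, which makes kynurenine from its formyl precursor, fell to 43.7 to 62.8 CPM from 81.0 to 103 and 111 to 145 (log2 differences -0.87 and -1.28, edgeR adjusted p = 0.000274 and 7.01e-06). Qprt, which leads from quinolinate towards NAD, fell too (-0.73 and -1.11, edgeR adjusted p = 0.00574 and 0.000247). Kyat1, a kynurenine aminotransferase, fell against healthy spleen (-1.22, edgeR adjusted p = 0.00902), and was lost without healthy spleen replicate 2 (-1.08, adjusted p = 0.066) and against the first-side library (-1.08, adjusted p = 0.228). Wars, the tryptophanyl-tRNA synthetase, fell against tumour-bearing spleen (-0.61, edgeR adjusted p = 0.00945), a call lost against the first-side spleens (-0.49, adjusted p = 0.0533).

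**Figure D4:**
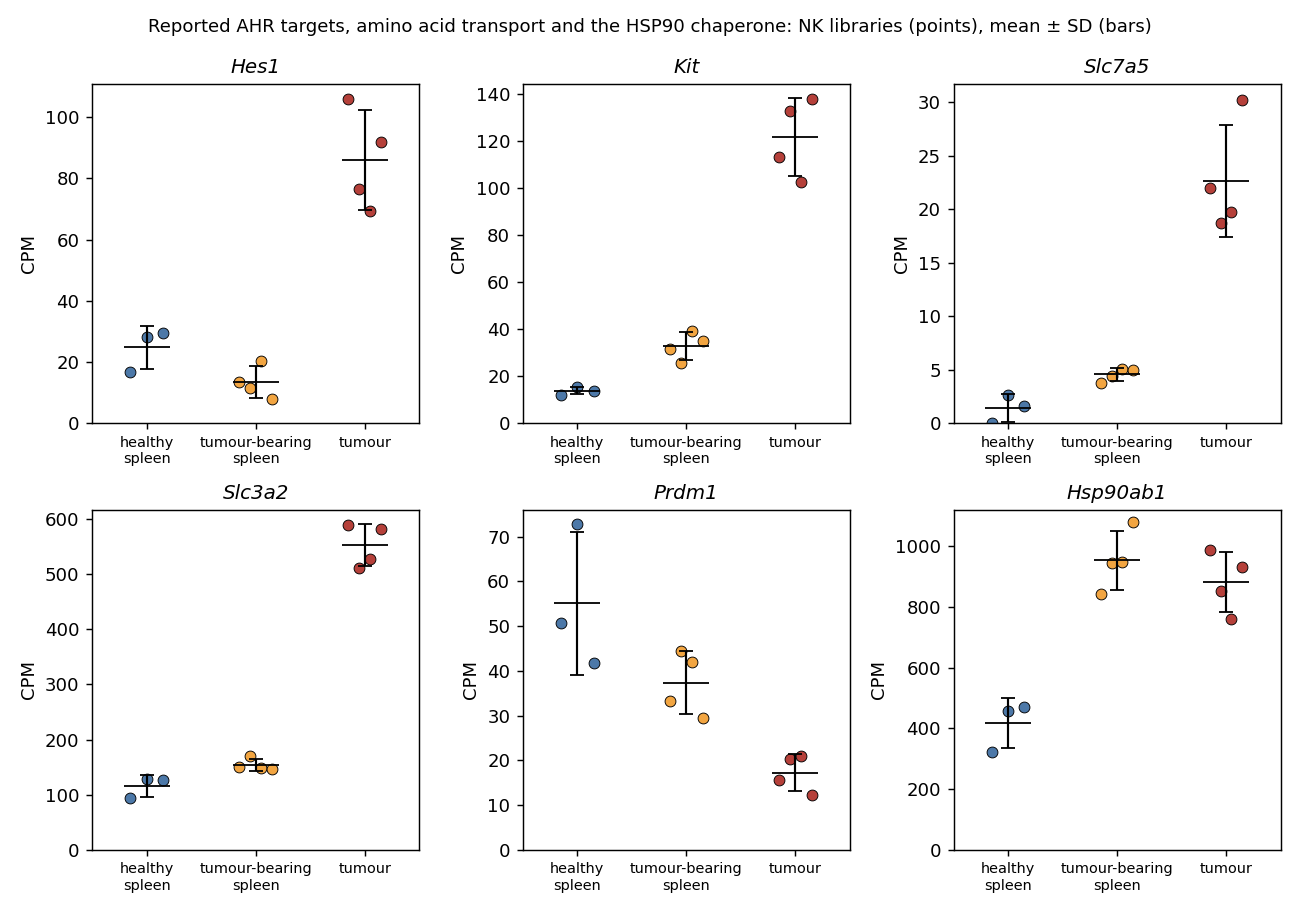
CPM (vertical axes) of Hes1, Kit, Slc7a5, Slc3a2, Prdm1 and Hsp90ab1 in the 3 NK groups (n = 3, 4 and 4); points are libraries and bars the mean ± SD. The first 4 have all tumour points above the spleen points, Prdm1 has them below, and Hsp90ab1 is lowest in healthy spleen.

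AHR and ARNT belong to the bHLH-PAS family, which includes sensors of oxygen and of the daily rhythm. The list used here is not of transcription factors alone, as it also holds coactivators and Per genes. Arnt and the coactivators on it were counted among the partners above too. Of 8 tested relatives 4 rose against tumour-bearing spleen and 3 against healthy spleen, with none called lower and medians of 0.60 and 0.45. The shares over all genes were 15.8% and 16.5% higher and 13.2% and 14.0% lower. Per1, a component of the circadian clock, had 241, 182, 140 and 226 CPM in tumour, 22.0 to 31.6 in tumour-bearing spleen and 15.6 to 24.5 in healthy spleen. It differed by 2.93 (SE 0.192, edgeR adjusted p = 8.67e-10) and 3.24 (SE 0.229, edgeR adjusted p = 3.11e-09). Epas1, which encodes the hypoxia factor HIF-2alpha, rose to 42.4 ± 8.13 CPM from 8.39 ± 4.84 and 9.47 ± 2.85, by 2.34 and 2.18 (edgeR adjusted p = 3.77e-05 and 0.000313). Hif1a, its relative HIF-1alpha, rose by 1.30 and 1.34 (edgeR adjusted p = 0.00136 and 0.00341), but by 0.30 (adjusted p = 0.608) against the first-side healthy library, which had 39.9 CPM where the other 2 had 14.4 and 12.3. Arntl, the clock partner BMAL1, was called against tumour-bearing spleen at 0.66 (edgeR adjusted p = 0.0223), lost without tumour-bearing spleen replicate 3 or 4 or tumour replicate 1 or 4 (0.53 to 0.65, adjusted p 0.052 to 0.073) and against the first-side spleens (0.39, adjusted p = 0.254).

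Tiparp's own family, the PARP enzymes that attach ADP-ribose to proteins, had 14 tested relatives. Of these 5 rose and 2 fell against tumour-bearing spleen, and 4 rose and 1 fell against healthy spleen, with medians of 0.25 and 0.20. Of all genes 15.8% and 16.5% were higher and 13.2% and 14.0% lower, so the falls in this family were near or below the background. Zc3hav1, a sensor of viral RNA, had 455, 492, 405 and 449 CPM in tumour, 122 to 196 in tumour-bearing spleen and 156 to 181 in healthy spleen. It differed by 1.52 (SE 0.146, edgeR adjusted p = 1.59e-07) and 1.45 (SE 0.163, edgeR adjusted p = 1.4e-06). Parp12, an interferon-induced member, had 8.97, 11.5, 10.2 and 5.67 CPM in tumour and 0.555 to 4.32 in tumour-bearing spleen, a difference of 2.00 (SE 0.503, edgeR adjusted p = 0.00528); in healthy spleen it had 0, 2 and 0 counts, too few for a fold. Parp14 rose by 0.61 and 0.62 (edgeR adjusted p = 0.00151 and 0.00302), the second lost against the first-side library (0.44, adjusted p = 0.224). Parp9 rose by 0.56 and 0.81 (edgeR adjusted p = 0.0181 and 0.00334), the first lost without tumour-bearing spleen replicate 2 or 3 or tumour replicate 1 (0.47 to 0.51, adjusted p 0.0568 to 0.0743), and both against the first-side spleens (0.49, adjusted p = 0.0961, and 0.70, adjusted p = 0.169). Parp16 fell (-0.97 and -1.40, edgeR adjusted p = 0.0346 and 0.00484). The first call was lost without tumour-bearing spleen replicate 3 or tumour replicate 1, 2 or 3 (-0.97 to -0.84, adjusted p 0.0724 to 0.108). DESeq2 ended that call too (-0.99, adjusted p = 0.0713). Both Parp16 calls were lost against the first-side spleens (-0.83, adjusted p = 0.143, and -0.26, adjusted p = 0.852). Tnks was called against tumour-bearing spleen (0.90, edgeR adjusted p = 0.0408) but not without tumour-bearing spleen replicate 1, 2 or 4 or tumour replicate 2, 3 or 4 (0.81 to 0.90, adjusted p 0.0634 to 0.0991), nor against either side alone (1.05, adjusted p = 0.0903, and 0.72, adjusted p = 0.149). The Tnks call also ended with DESeq2 (0.90, adjusted p = 0.128) and with upper-quartile scaling (0.80, adjusted p = 0.0632). Parp3 was called lower against tumour-bearing spleen (-0.45, edgeR adjusted p = 0.0465) but not without tumour-bearing spleen replicate 2 or 3 or tumour replicate 1 or 2 (-0.41 to -0.35, adjusted p 0.111 to 0.157), nor against the first-side spleens (-0.49, adjusted p = 0.0597). DESeq2 did not call Parp3 in that contrast either (-0.46, adjusted p = 0.0671). Among the 14 tested relatives the highest difference in that contrast was that of Parp12, 2.00, where Tiparp had 3.38.

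Ugt1a6b belongs with the enzymes that conjugate small molecules. A list of 31 such enzymes and related genes, among them transporters and the epoxide hydrolase Ephx1, had 15 in the table and 14 tested. In both tumour contrasts 3 rose and 5 fell, with medians of 0.10 and -0.05; of all genes 15.8% and 16.5% rose, close to the share here, and 13.2% and 14.0% fell. Sult2b1, a sulfotransferase of sterols, had 30.2, 41.8, 80.1 and 53.9 CPM in tumour and 0.555 to 2.27 in tumour-bearing spleen, a difference of 5.48 (SE 0.434, edgeR adjusted p = 1.44e-08). In healthy spleen Sult2b1 had 0, 0 and 1 counts, too few for a fold. Ephx1, an epoxide hydrolase, had 15.5, 11.5, 10.2 and 11.3 CPM in tumour, 40.2 to 73.7 in tumour-bearing spleen and 16.9 to 31.2 in healthy spleen, with differences of -2.22 (SE 0.245, edgeR adjusted p = 9.98e-07) and -1.10 (SE 0.286, edgeR adjusted p = 0.00629). The Ephx1 call against healthy spleen was lost against the first-side library (-0.50, adjusted p = 0.557). Gstm1, a glutathione transferase, fell to 33.2 to 38.3 CPM from 66.7 to 105 and 96.6 to 146 (-1.34 and -1.86, edgeR adjusted p = 1.1e-05 and 3.71e-07). Ephx1 shares with Ugt1a6b the higher level in tumour-bearing than in healthy spleen, but not the intermediate level in tumour.

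The other called genes of this list were as follows. Gsto1, a glutathione transferase, rose by 0.88 and 0.75 (edgeR adjusted p = 0.0052 and 0.026), the second lost without healthy replicate 1 or 3 or tumour replicate 2 (0.56 to 0.68, adjusted p 0.0808 to 0.0983) and against the second-side libraries (0.54, adjusted p = 0.0637). Slc35b1, a nucleotide transporter, rose by 0.42 and 0.78 (edgeR adjusted p = 0.0253 and 0.000671), the first lost without tumour-bearing spleen replicate 2, 3 or 4 or tumour replicate 1, 3 or 4 (0.38 to 0.42, adjusted p 0.0527 to 0.0661), against the first-side spleens (0.37, adjusted p = 0.137) and with upper-quartile scaling (0.32, adjusted p = 0.0773). Gstp1, of the same enzyme family as Gsto1, differed by -0.80 and -0.84 (edgeR adjusted p = 0.0281 and 0.0315). Its calls were lost without tumour-bearing spleen replicate 4 or tumour replicate 2 or 4 (-0.75 to -0.66, adjusted p 0.0656 to 0.0894) and without healthy replicate 2 or 3 or tumour replicate 2 or 4 (-0.80 to -0.66, adjusted p 0.0658 to 0.19). Gstp1 had 15.3 CPM in healthy spleen replicate 1 and 38.8 and 38.6 in the other 2, and against replicate 1 alone its difference was 0.24; against the first-side tumour-bearing spleens it was -0.62 (adjusted p = 0.104). Nat2, an N-acetyltransferase, differed by -1.01 and -1.24 (edgeR adjusted p = 0.04 and 0.0198). With DESeq2 the first was not called (-1.02, adjusted p = 0.0761). Nat2 was not called against tumour-bearing spleen without tumour-bearing spleen replicate 1, 2 or 3 or any 1 tumour replicate (-1.10 to -0.89, adjusted p 0.0558 to 0.113) or against the second side alone (-0.85, adjusted p = 0.0963), nor against healthy spleen without healthy replicate 2 (-1.25, adjusted p = 0.0637) or tumour replicate 1 (-1.13, adjusted p = 0.0584).

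Immediate early genes, which respond within minutes to stimulation and to tissue dissociation, were followed because tumours alone were digested warm. Of 16 tested, 15 rose against tumour-bearing spleen and 16 against healthy spleen, with medians of 1.84 and 2.65. Over all genes the shares called higher were 15.8% and 16.5%. Fosb, Junb and Nr4a1 had 489 ± 59.2, 2967 ± 521 and 2087 ± 300 CPM in tumour (SD, n = 4), against 13.1 ± 8.53, 519 ± 176 and 288 ± 110 in tumour-bearing spleen. Their differences there were 5.17 (SE 0.398, edgeR adjusted p = 3.41e-06), 2.51 (SE 0.216, edgeR adjusted p = 7.47e-08) and 2.85 (SE 0.275, edgeR adjusted p = 3.43e-06). Klf4 and Atf3 rose by 3.70 (edgeR adjusted p = 3.95e-06) and 3.47 (edgeR adjusted p = 9.58e-08) in the same contrast, and Jun by 3.61 against healthy spleen (edgeR adjusted p = 5.84e-09). Against tumour-bearing spleen these genes ran from -0.46 (Egr2, not called) to 5.17 (Fosb). The differences of Ahr and Tiparp given above lie inside that range, but it is so wide that nothing is read from this. Whether handling had a part in any of these differences was not tested.

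Between the spleens of tumour-bearing and healthy mice few genes changed, 1.23% of the 8471 higher and 0.354% lower, and 2 of the 34 genes around the receptor were called. Hsp90ab1 had 844, 944, 947 and 1081 CPM in tumour-bearing spleen against 323, 458 and 471 in healthy spleen, a difference of 1.19 (SE 0.165, edgeR adjusted p = 0.000397). Kit differed by 1.21 (SE 0.227, edgeR adjusted p = 0.0065), and its call was lost without healthy spleen replicate 2 (1.31, adjusted p = 0.0538). Hsp90ab1 thus had the level of the tumour libraries, 883 ± 99.1 CPM, already in tumour-bearing spleen, while Kit was between. Of the other lists, Ephx1 rose by 1.12 (SE 0.238, edgeR adjusted p = 0.0163), lost without tumour-bearing spleen replicate 3 (0.95, adjusted p = 0.0608) or healthy spleen replicate 2 (1.16, adjusted p = 0.0966). The immediate early genes Egr2, Egr1 and Jun rose by 2.17, 1.97 and 1.64 (edgeR adjusted p = 0.00338, 0.00102 and 0.00338), Egr2 not without healthy spleen replicate 2 (2.22, adjusted p = 0.0524). With side as a block among the spleen libraries 6 of the genes around the receptor were called, and 1 without healthy spleen replicate 2. Arnt differed by 0.13 (edgeR adjusted p = 0.953), less than its SE.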

How the data were processed

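Counts per gene symbol, as deposited by the authors, were whole numbers in 2 tables, 1 of the 11 NK libraries and 1 of the 3 sCAF libraries. The submitters' processing notes name bcl2fastq, STAR 2.4.2a, HTSeq and the build mm10; the annotation, any use of strand, molecular identifiers and any filter on genes are not given in the sources used here. The NK table lists no gene whose highest count is under 6, so genes not listed may be low and not absent.

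Groups came from the labels. One fit in edgeR 4.0.16 (R 4.3.3) covered all 11 NK libraries: TMM scaling, filterByExpr, robust glmQLFit and glmQLFTest, Benjamini-Hochberg adjustment, called at an adjusted p under 0.05. CPM use TMM effective library sizes, except sums of cell markers and sCAF values, which use raw totals. Log2 fold changes are edgeR's. Each SE is the size of the log2 fold change over the square root of edgeR's F statistic. The p-values set a difference against the spread between these libraries. The procedure was tested on simulated data. Alternatives were upper-quartile and RLE scaling, DESeq2 1.42.0, no filter, the 2 groups alone, replicate block, spleen side and leaving out each library. Log2 CPM for likeness used a prior count of 2.

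The 3 genes, the gene lists and the tests were chosen with earlier results of these data known. Named genes were the 3, up to 5 called genes each way per list and tumour contrast (3 in the spleen contrast), 7 genes of the AHR system always, and the 5 genes most like each of the 3. Positions are from GENCODE M21, promoters from RefSeq. Some genes that count in the lists are not reported here by name.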

Additional observations from a re-analysis of the deposited data

Results flagged for a closer look

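In all, 3 values stood apart from the other replicates of their group by Dixon's test at the 95% level, out of 74 gene and group combinations with 4 libraries; chance alone flags about 1 in 20. Ugt1a6b had 50.5 CPM in tumour NK replicate 2, where the other 3 tumour libraries had 62.8 to 64.3. Ncoa3, a coactivator gene, had 28.8 CPM in the same library against 20.3 to 21.7 in the others. Haao, of the kynurenine pathway, had 13.9 CPM in tumour NK replicate 1 against 23.9 to 24.6. Tumour NK replicate 2 is the shallowest tumour library, with 712439 counts.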

How the results depend on the processing

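The Ahr difference between tumour and tumour-bearing spleen was 2.75 to 3.8 on the log2 scale when single libraries were left out and 2.39 to 4.57 under the other alternatives, and against healthy spleen 3.07 to 4.15 and 2.09 to 4.14. Tiparp gave 3.14 to 3.60 and 2.34 to 3.17, and Ugt1a6b -0.75 to -0.28 and 1.04 to 1.52, so the sign of each held in all alternatives run for the tumour contrasts; Ahr between the spleen groups ran from -0.35 to 1.03. The lowest values against healthy spleen, 2.09 (Ahr), 2.34 (Tiparp) and 1.04 (Ugt1a6b), came with its first-side library alone, and 4.57 (Ahr) with the second-side tumour-bearing spleens; the cause was not tested. That first-side setting also gave 1472 called genes against 2581, 11 genes around the receptor against 17, and a Gstp1 difference of 0.24 (adjusted p = 0.804) in place of -0.84. Between the spleen groups, side as a block gave 691 called genes against 134 and 6 receptor genes against 2; leaving out single libraries gave 42 to 137 and 1 to 3, with 42 without healthy spleen replicate 2 and 67 without replicate 3. The share of higher calls was 54.5% and 54.2% in the tumour contrasts but 41.6% and 42.4% with upper-quartile scaling, 63.4% against the first-side healthy library, and 64.1% with the side block and 88.1% without healthy spleen replicate 3 against 77.6% between spleens. The labels do not say whether libraries of equal replicate number came from the same mouse. Correlations of their deviations were -0.0471 to 0.288 between tumour and tumour-bearing spleen, and -0.353 to 0.501 over all contrasts. With so few pairs these values cannot decide it. With the replicate block, 2625, 2647 and 115 genes were called against 2453, 2581 and 134, and 16, 18 and 2 genes around the receptor; among named genes the block ended the calls of Nat2, and of Tnks and Parp3 against tumour-bearing spleen. DESeq2 ended the calls of Parp16, Tnks, Parp3 and Nat2 against tumour-bearing spleen. Upper-quartile scaling ended those of Tnks and Slc35b1 in that contrast. Tiparp was filtered out in some fits of the spleen contrast. Depth limits Ahr and Tiparp in spleen, where 2 to 19 counts stand behind a value.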
